A study of Mus musculus with 6 samples.

Results

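Insulin signal transduction was measured through 10 genes, namely Insr, Irs1, Irs2, Pik3r1, Pik3ca, Akt1, Akt2, Grb10, Slc2a4 and Tbc1d4. They were listed by symbol for their place between the insulin receptor and glucose uptake, and each had 1 probe set among the 21212 of the arrays, of which 18782 carry a gene name used here. Whole-transcript arrays compared gastrocnemius and plantaris muscle of control mice and of mice bearing the C26 colon adenocarcinoma, a tumor that causes severe wasting of skeletal muscle. All animals were male CDF1 mice, 8 weeks old when purchased, housed individually with food and water freely available. Control mice received PBS and matrigel under the skin of both flanks, C26 mice received C26 cells in the same mixture, and muscles were taken 25 days later. RNA of 3 control mice and 4 C26 mice was combined from 2 to 3 muscles at a time into 6 pools, each put on 1 array. Control muscle has pools numbered 1, 2 and 3, and C26 muscle has pools numbered 1, 3 and 4. The sources do not say which muscles entered which pool. A mouse may have entered more than 1 pool, and p-values then measure only how far pools differ, which may be technical.

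Insulin binds a receptor tyrosine kinase, encoded by Insr, which phosphorylates the docking proteins IRS1 and IRS2. These recruit class IA PI3 kinase, made of a regulatory subunit such as that of Pik3r1 and a catalytic subunit such as that of Pik3ca. The lipid it makes brings the kinases AKT1 and AKT2 to the membrane, where they are activated. In muscle AKT phosphorylates TBC1D4 (also called AS160), a Rab GTPase-activating protein that otherwise holds the glucose transporter GLUT4, encoded by Slc2a4, inside the cell. AKT also keeps FoxO transcription factors out of the nucleus. GRB10 is an adaptor that binds the receptor and dampens its signal.

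Values are log2 expression values computed by the authors with RMA, and a difference of 1 is a doubling. The words rose and fell are kept for genes with a limma adjusted p no higher than 0.05 (Benjamini-Hochberg over all 21212 probe sets) whose change was 1.5-fold or larger. The brightness of a probe set depends on its probes, so levels are compared between groups for 1 gene and not between genes. Array medians lay between 4.93 and 5.02, and the correlation between arrays was 0.994 to 0.996 within groups and 0.976 to 0.981 between them. Muscle fiber genes marked the labelled tissue. Of 11 such markers 11 were above background, with a mean level of 12.16 to 12.21 in control and 11.99 to 12.06 in C26 pools, and 0 of the 11 passed both thresholds by limma while 2 (Mb and Pvalb) were lower on adjusted p alone. Markers of gut epithelium, which could have come with tumor cells, had a mean level of 4.15 to 4.22 in control and 4.03 to 4.07 in C26 pools, near the background of 3.82 given by olfactory and vomeronasal receptor probe sets. Of the 8 markers on that list Epcam, Krt20 and Vil1 were below the background in both groups and 5 were above it, among them Krt8 (5.47 in control and 5.15 in C26 muscle). All 10 insulin signaling genes lay above the background in both groups.

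Of the 10 genes, 5 rose in C26 muscle by limma, 0 fell and 5 missed a threshold. The genes that rose were Irs2, Akt1, Pik3r1, Tbc1d4 and Insr, by 1.80-fold to 3.11-fold. Among all probe sets of the arrays 5.94% rose and 4.95% fell, or 10.9% together. By adjusted p alone, with no fold minimum, 7 of the 10 genes were higher and 1 (Irs1, unadjusted p = 0.00165 from limma) was lower. For all probe sets these shares were 14.3% and 15.8%, or 30.1% together. In log2 units, the 10 genes had a median change of 0.67 and all probe sets one of −0.05. The groups did not overlap for 9 of the 10 genes (7 higher and 2 lower in C26), as was the case for 43.9% of all probe sets (19.3% higher and 24.6% lower). A test with unequal variances, which estimates the spread from 3 pools of each group alone, called only Insr and Pik3r1 of the 5 genes that rose. The genes were chosen with earlier results of these data known, and their counts are given as a description. In whole muscle, a change in the number of cells of a type and a change of RNA per cell cannot be told apart.

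**Figure D1:**
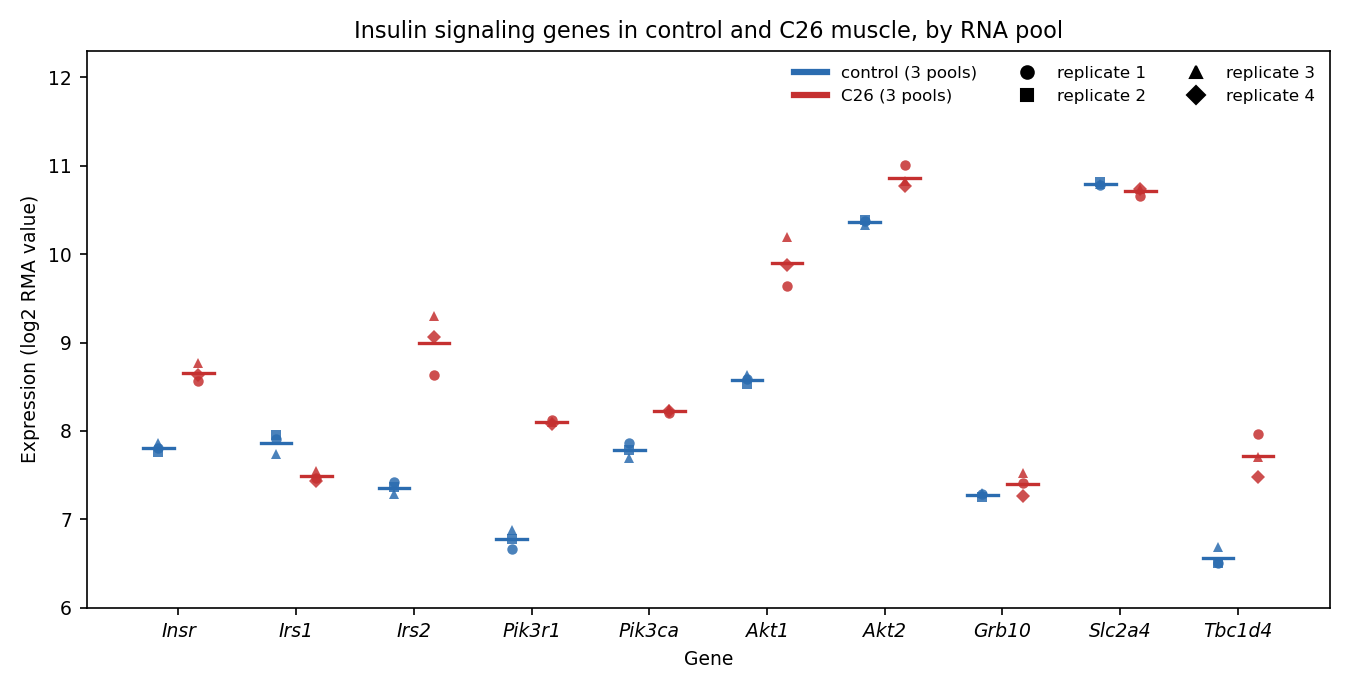
Expression of the 10 insulin signaling genes (log2 RMA value, vertical axis) in 3 control pools (blue) beside 3 C26 pools (red). A line marks the group mean, and symbols tell the replicate numbers apart. The C26 pools of Irs2, Akt1, Pik3r1, Tbc1d4 and Insr lie well above the control pools, whereas Grb10 overlaps between the groups and the means of Slc2a4 differ by 0.09.

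The promoters of the docking protein genes Irs1 and Irs2 are shown because Irs2 rose while Irs1, its relative, did not. The promoter of Akt1 is shown because, of the 8 genes that could be searched, it alone had a FoxO element. RefSeq windows (GRCm38.p6) were found for 8 of the 10 genes (not for Insr and Slc2a4), with 14 start sites between them. The 250 bases before each start were searched on both strands. Capitals mark CACGTG, the E-box, in the Irs1 and Irs2 windows and TGTTTAC, the FoxO element, in that of Akt1.
Irs1, chr1:82291440-82291689, minus strand: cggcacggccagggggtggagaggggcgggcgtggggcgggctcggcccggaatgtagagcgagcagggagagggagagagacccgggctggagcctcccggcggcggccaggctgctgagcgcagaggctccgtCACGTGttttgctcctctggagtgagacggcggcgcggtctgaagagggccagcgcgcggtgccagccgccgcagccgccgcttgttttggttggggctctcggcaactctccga
Irs2, chr8:11008930-11009179, minus strand: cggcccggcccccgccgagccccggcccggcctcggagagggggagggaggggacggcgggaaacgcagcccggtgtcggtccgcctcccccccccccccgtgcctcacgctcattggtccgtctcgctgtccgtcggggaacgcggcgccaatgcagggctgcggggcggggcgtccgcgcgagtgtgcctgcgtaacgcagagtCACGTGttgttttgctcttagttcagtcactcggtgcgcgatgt
Akt1, chr12:112674885-112675134, minus strand: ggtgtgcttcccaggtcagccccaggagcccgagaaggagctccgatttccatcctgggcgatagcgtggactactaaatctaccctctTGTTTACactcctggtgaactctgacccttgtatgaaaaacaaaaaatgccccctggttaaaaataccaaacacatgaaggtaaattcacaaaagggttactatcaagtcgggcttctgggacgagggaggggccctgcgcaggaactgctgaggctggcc

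The E-box began 115 bases before the start of Irs1 and 44 bases before that of Irs2, and the windows of both genes shared the 10 bases gtcacgtgtt around it. A second run of the same length, tgttttgctc, was shared beside it, overlapping the E-box in Irs1 and following it in Irs2, and no longer run was shared. These were the 2 of 14 windows with an E-box, which 6.02% of all 32851 windows hold. The FoxO element stood 161 bases before 1 of the 2 starts of Akt1 and is held by 3.17% of all windows. A GC box, GGGCGG, was found in 8 of the 14 windows, against 32.7% of all windows. Each of the 8 genes had it at 1 start or more, and the share of all genes that do was not counted. TTCNNNGAA, a STAT element, was found in 1 window, of Akt2 (7.02% of all windows). TTGCGCAA, a C/EBP element, and GGGNNTTCC, a simplified kB element, were in 0 of the 14 windows, and 0.164% and 4.98% of all windows hold them. The motifs were chosen after the expression values were seen. A match describes letters in a window only, and the capitals mark 1 motif in each window.

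At the top of the pathway, Insr rose in C26 muscle. Its control pools 1, 2 and 3 read 7.81, 7.76 and 7.87, and its C26 pools 1, 3 and 4 read 8.56, 8.77 and 8.64 (log2 values). Each C26 pool was higher than each control pool. On the log2 scale the rise was 0.85 with a standard error (SE) of 0.08 over 3 pools per group, and limma gave an adjusted p = 0.000133. This is 1.80-fold, with a 95% confidence interval of 1.58 to 2.05. The probe set sums over the gene and does not separate the receptor isoforms with and without the alternative exon.

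Of the docking protein genes Irs2 rose, and Irs1 did not pass both thresholds. Irs2, which encodes a docking protein shared by the insulin and IGF-1 receptors, read 7.42, 7.37 and 7.29 in the control pools and 8.64, 9.30 and 9.06 in C26 pools 1, 3 and 4. The C26 pools were all above the control pools, with the lowest of them in replicate 1. Irs2 had the largest change of the 10 genes, 3.11-fold with a 95% confidence interval of 2.45 to 3.95 (1.64 on the log2 scale, SE 0.15, limma adjusted p = 9.99e-05). It ranked 110 by size of rise among the 21212 probe sets. Irs1, the other main docking protein gene of muscle, read 7.91, 7.95 and 7.74 in control and 7.47, 7.55 and 7.44 in C26 pools. The groups did not overlap, and Irs1 was lower in C26 by less than 1.5-fold, at −0.38 in log2 units (SE 0.08, interval −0.57 to −0.19, limma adjusted p = 0.00913). The adjusted p of this difference was 0.0736 by the test with unequal variances.

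The difference between the 2 docking protein genes within each pool grew by 2.02 on the log2 scale in C26 muscle. Relative to the control mean, this difference was 0.02, −0.08 and 0.06 in the control pools and 1.68, 2.25 and 2.13 in C26 pools 1, 3 and 4. An exact two-sided permutation test gave p = 0.1, which is the smallest that 3 against 3 pools can give, and 0.1 after adjustment over the 4 pairs of genes compared in this way. Macrophage markers rose beside Irs2 in the same pools. Of 8 such markers 5 rose (Itgam, Cd163, Mrc1, C1qa and C1qb) and 0 fell by limma, and their mean level was 6.14 to 6.27 in control and 6.93 to 6.99 in C26 pools. Csf1r and Adgre1, defining markers of the list, had log2 fold changes of 0.02 and 0.00. The part of macrophage RNA in the changes of the insulin signaling genes was not tested.

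The subunit genes of PI3 kinase were both higher in C26 muscle, and the regulatory one by more. Pik3r1, which encodes the p85α regulatory subunit and its shorter forms, read 6.67, 6.78 and 6.88 in control and 8.12, 8.11 and 8.07 in C26 pools. The C26 pools lay close together and far above control. The rise was 2.50-fold with a 95% confidence interval of 2.20 to 2.84 (log2 1.32, SE 0.08), and its limma adjusted p = 1.45e-05 was the lowest of the 10 genes. The RefSeq windows place 2 starts at Pik3r1, and its single probe set does not tell transcripts of these starts apart.

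Pik3ca, which encodes the p110α catalytic subunit, read 7.86, 7.79 and 7.70 in control and 8.21, 8.25 and 8.23 in C26 pools. Its groups did not overlap, and the difference of 0.45 in log2 units (SE 0.08, limma adjusted p = 0.00249) was 1.36-fold, under the minimum. The difference between Pik3r1 and Pik3ca within a pool grew by 0.88 on the log2 scale (SD 0.19 over control and 0.04 over C26 pools), with p = 0.1 by the same exact permutation test, again its smallest value.

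Both AKT genes were higher in C26 muscle. Akt1, the kinase gene tied mainly to growth and survival, read 8.59, 8.53 and 8.63 in control and 9.64, 10.19 and 9.88 in C26 pools. C26 replicate 1 was again the lowest of the 3 C26 pools and lay above every control pool. Akt1 rose 2.50-fold with a 95% confidence interval of 2.04 to 3.07 (log2 1.32, SE 0.13, limma adjusted p = 0.000133). Akt2, the kinase gene tied mainly to insulin action on glucose, read 10.37, 10.39 and 10.33 in control and 11.00, 10.83 and 10.77 in C26 pools. The groups did not overlap, and Akt2 was 1.42-fold higher (log2 0.50, SE 0.08, limma adjusted p = 0.00225). This is under the fold minimum, with an interval of 1.24 to 1.62 that reaches past it. In C26 muscle the pool with the lowest Akt1 had the highest Akt2. The difference between Akt1 and Akt2 therefore grew unevenly, by 0.42, 1.14 and 0.89 in C26 pools 1, 3 and 4 from the control mean (mean 0.82), and the exact permutation p was 0.1.

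**Figure D2:**
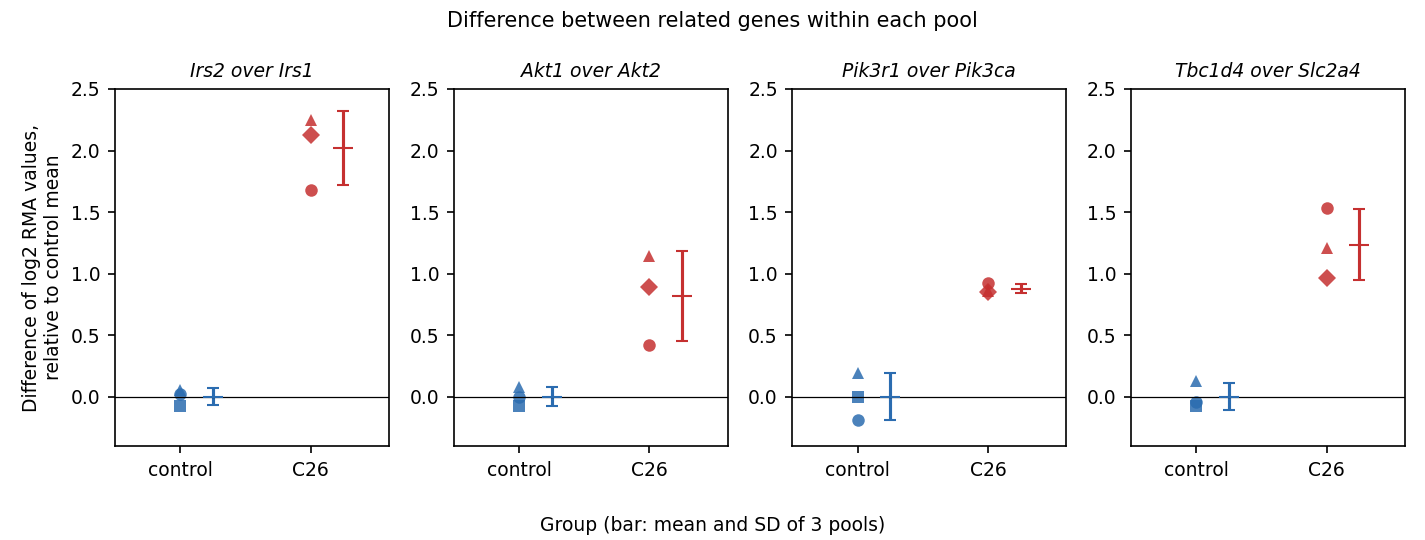
Difference of log2 values between 2 related genes within each pool, relative to its mean over the control pools (vertical axis), with control in blue and C26 in red and the mean and SD of 3 pools beside the points. Circles, squares, triangles and diamonds stand for replicates 1, 2, 3 and 4, and in all 4 pairs the C26 points lie above the control points, with mean shifts from 0.82 for Akt1 and Akt2 to 2.02 for Irs2 and Irs1.

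At the end of the pathway, Tbc1d4 rose while no change of Slc2a4 was detected. Tbc1d4 read 6.51, 6.50 and 6.69 in control and 7.96, 7.71 and 7.48 in C26 pools. Every C26 pool was above the control pools, and replicate 1, the lowest C26 pool for Irs2 and Akt1, was the highest here. Tbc1d4 rose 2.22-fold with a 95% confidence interval of 1.82 to 2.70 (log2 1.15, SE 0.12, limma adjusted p = 0.000231). Slc2a4 read 10.78, 10.81 and 10.80 in control and 10.66, 10.73 and 10.74 in C26 pools. Its groups did not overlap, but the difference of −0.09 in log2 units was close to its limma SE of 0.07 (limma adjusted p = 0.404). The test with unequal variances, from these pools alone, gave a smaller SE of 0.03 and an adjusted p of 0.203. A t-test with equal variances gave an adjusted p of 0.112. The limma interval, 0.841-fold to 1.05-fold, leaves out a 1.5-fold change in either direction. The difference between Tbc1d4 and Slc2a4 grew by 1.24 (exact permutation p = 0.1).

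Fat cells also express Slc2a4, Irs1 and Insr, and some but not all markers of fat cells were lower in C26 muscle. Of 9 adipocyte markers 4 fell (Adipoq, Plin1, Lep and Car3) and 0 rose, and their mean level was 6.71 to 6.86 in control and 6.19 to 6.44 in C26 pools. Plin1, a coat protein gene of lipid droplets, had the largest of these changes at −1.51 in log2 units (SE 0.12, limma adjusted p = 4.17e-05). Lep read 4.36 in control and 3.74 in C26 muscle, where it was below the background of 3.82. Car3 read 11.25 in control and 10.65 in C26 muscle and is not particular to fat cells. Pparg was lower on adjusted p alone (−0.42, limma adjusted p = 0.00903). Fabp4, Lipe, Cidec and Retn had changes of −0.06, −0.003, −0.18 and −0.21 and passed neither threshold. Of 8 slow fiber markers 2 fell (Myl3 and Casq2), and the mean level of the list was 9.09 to 9.13 in control and 8.75 to 8.78 in C26 pools. On adjusted p with no fold minimum 5 of the 8 were lower, and Myh7, Tnnc1 and Atp2a2 (−0.18, −0.14 and −0.09) were not. Of 7 fibroblast markers 3 fell (Col1a1, Col3a1 and Thy1), with a mean level of 8.62 to 8.77 in control and 7.88 to 8.08 in C26 pools. Col1a1 had the largest of these changes at −2.61 in log2 units, whereas Pdgfra of the same list was higher on adjusted p alone (0.50, limma adjusted p = 0.00135) and Dcn had a change of 0.03. Endothelial markers, of which Vwf rose and Kdr fell among 8, had a mean level of 7.43 to 7.56 in control and 7.33 to 7.48 in C26 pools. For 5 satellite cell markers, of which 0 passed both thresholds by limma and 1 was higher on adjusted p alone, it was 5.13 to 5.31 and 5.20 to 5.26. The part of these cell types in the values of the insulin signaling genes was not tested.

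Grb10, the receptor-binding adaptor gene, was the member whose groups overlapped. It read 7.28, 7.25 and 7.30 in control and 7.41, 7.53 and 7.27 in C26 pools, so that C26 replicate 4 fell among the control pools. The difference of 0.12 in log2 units had an interval of −0.07 to 0.32 (SE 0.09, limma adjusted p = 0.329).

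**Figure D3:**
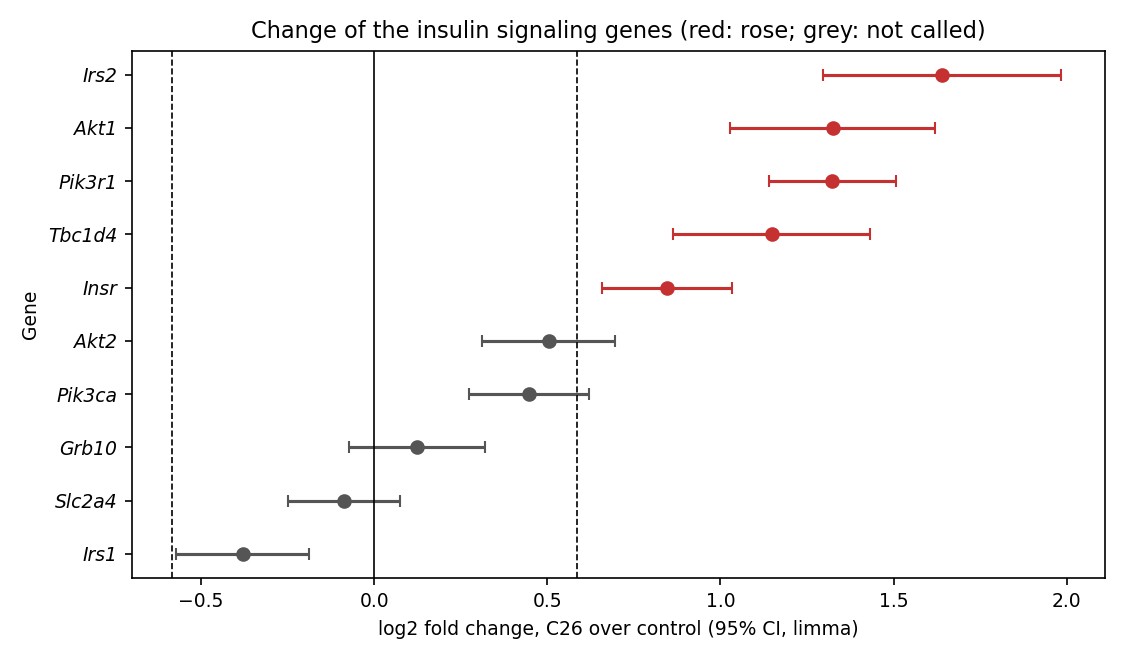
log2 fold change of C26 over control (horizontal axis) of each of the 10 genes with its 95% confidence interval from limma, ordered by size, in red where the gene rose and in grey where it was not called. The solid line marks no change and the dashed lines a 1.5-fold change, and the intervals of Grb10 and Slc2a4 cross 0 while those of Akt2 and Pik3ca cross the 1.5-fold line.

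The C26 pools did not rank the same way for all genes that rose. The median shift of the 5 genes from the control mean was 1.28, 1.33 and 1.30 in C26 pools 1, 3 and 4. Irs2, Akt1 and Insr were lowest in replicate 1 and highest in replicate 3, whereas Tbc1d4 and Pik3r1 were highest in replicate 1 and lowest in replicate 4. Leaving out any 1 pool left all 5 genes called.

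**Figure D4:**
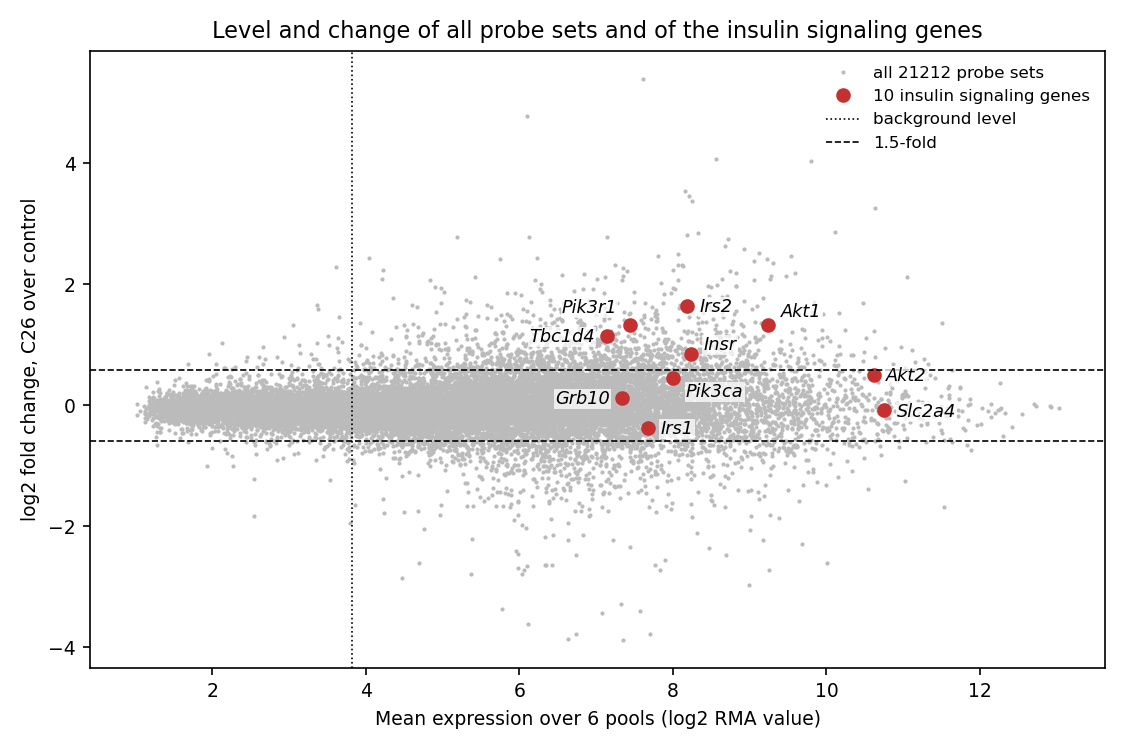
log2 fold change of C26 over control (vertical axis) against the mean log2 value over the 6 pools (horizontal axis) for all 21212 probe sets (grey) and the 10 insulin signaling genes (red, named). The dotted line marks the background of 3.82 and the dashed lines a 1.5-fold change, and all 10 genes lie to the right of the background, with 5 of them above the upper dashed line.

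The wider insulin pathway, in 6 lists written from general knowledge, held 80 other genes with a named probe set. Of these 15 rose, 6 fell and 59 missed a threshold, and their median change was 0.04 in log2 units. This is 18.8% that rose and 7.5% that fell, beside 5.94% and 4.95% of all probe sets. The lists were written with earlier results of these data known.

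Of 13 receptor and adaptor genes 2 rose and 0 fell. Igf1r, which encodes the IGF-1 receptor and signals through the same docking proteins, rose by 0.82 in log2 units (SE 0.11, limma adjusted p = 0.000667). It read 5.93, 5.90 and 6.20 in control and 6.99, 6.79 and 6.73 in C26 pools, which did not overlap. Phip, whose protein binds the IRS pleckstrin homology domain, rose by 0.70 (SE 0.08). The adaptor genes Grb2 and Sos1, which link the receptor to Ras, had changes of −0.35 and −0.52 and did not pass the fold minimum.

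Of 11 genes of PI3 kinase, PDK1, mTOR complex 2 and lipid phosphatases, 2 rose and 2 fell. Inppl1, which encodes SHIP2, a phosphatase that removes the PI3 kinase product, fell by 0.95 (SE 0.12, limma adjusted p = 0.000629). Its control pools read 8.15, 8.21 and 8.20 and its C26 pools 7.52, 7.20 and 7.00. Pdpk1, the gene of the PDK1 kinase that activates AKT, rose by 0.72 (SE 0.11), and Mtor rose by 0.62 (SE 0.07). Pik3cd, the catalytic subunit gene typical of leukocytes, fell by 0.66 (SE 0.10). The other regulatory and catalytic subunit genes Pik3r2, Pik3r3 and Pik3cb had changes of −0.04, −0.46 and −0.06 and were not called.

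Of 13 inhibitors of insulin signaling 3 rose and 1 fell. Grb14, which encodes an adaptor related to GRB10 that blocks the receptor kinase, fell by 1.48 (SE 0.07, limma adjusted p = 4.9e-06). It read 6.68, 6.60 and 6.60 in control and 5.20, 5.12 and 5.13 in C26 pools, so that the groups lay far apart. Socs3, whose product targets the receptor and IRS proteins, had the largest change of the 13. It rose by 1.49 (SE 0.18, limma adjusted p = 0.000407), or 2.81-fold. The tyrosine phosphatase genes Ptpn2 and Ptpn1, whose products act on the insulin receptor, rose by 0.85 (SE 0.11) and 0.71 (SE 0.10). Among the inhibitors not called, Trib3 and Socs1 had changes of 0.20 and −0.18 and passed neither threshold. On adjusted p with no fold minimum 5 of the 13 were higher and 2 lower, beside 14.3% and 15.8% of all probe sets.

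Of 14 genes below AKT 6 rose, 0 fell and 8 were not called, and the median change was 0.17 in log2 units. The mean level of this list was 7.55 to 7.60 in control and 8.11 in each C26 pool. The largest changes on the list were those of Eif4ebp1, Foxo1 and Foxo3 (2.46, 2.08 and 1.35). Gsk3b, the glycogen synthase kinase gene, rose by 0.84 (SE 0.07, limma adjusted p = 8.36e-05). Rheb, the activator of mTOR complex 1, rose by 0.75 (SE 0.11), and Tsc1, part of the complex that restrains it, by 0.59 (SE 0.08). Related genes of the same branches, Gsk3a, Foxo4 and Tsc2, had changes of 0.08, 0.05 and −0.07 and were not called.

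Of 17 genes of GLUT4 vesicle traffic 1 rose and 1 fell (5.88% each), close to the shares of all probe sets. Stxbp4, which encodes Synip, a protein that binds syntaxin 4 at the membrane where GLUT4 vesicles fuse, fell by 1.91 (SE 0.09, limma adjusted p = 3.53e-06). It read 6.88, 6.85 and 6.94 in control and 5.12, 4.93 and 4.89 in C26 pools, the largest change on the list. Aspscr1, which encodes TUG, a tether of GLUT4 vesicles, rose by 0.95 (SE 0.15), with a smaller shift in C26 replicate 1 (8.17) than in replicates 3 (8.66) and 4 (8.81). Tbc1d1, the paralog of Tbc1d4 in muscle, had a change of 0.30 (SE 0.11, limma adjusted p = 0.0708). On adjusted p with no fold minimum 3 of the 17 were higher and 5 lower, beside 14.3% and 15.8% of all probe sets. Rab10 was among the lower ones but under the fold minimum (−0.50, SE 0.08, limma adjusted p = 0.00163).

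Of 12 other glucose transporter and glucose use genes 1 rose and 2 fell. Hk2, which encodes the hexokinase that traps glucose in muscle, fell by 0.81 (SE 0.08, limma adjusted p = 0.000131), from 9.58, 9.61 and 9.62 to 8.76, 8.91 and 8.72. Slc2a12, the gene of the transporter GLUT12, fell by 0.69 (SE 0.08), and Gyg, the glycogenin gene that primes glycogen, rose by 0.67 (SE 0.08). Slc2a1, the GLUT1 gene, and Gys1, the muscle glycogen synthase gene, had changes of 0.37 and 0.06 and were not called.

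**Figure D5:**
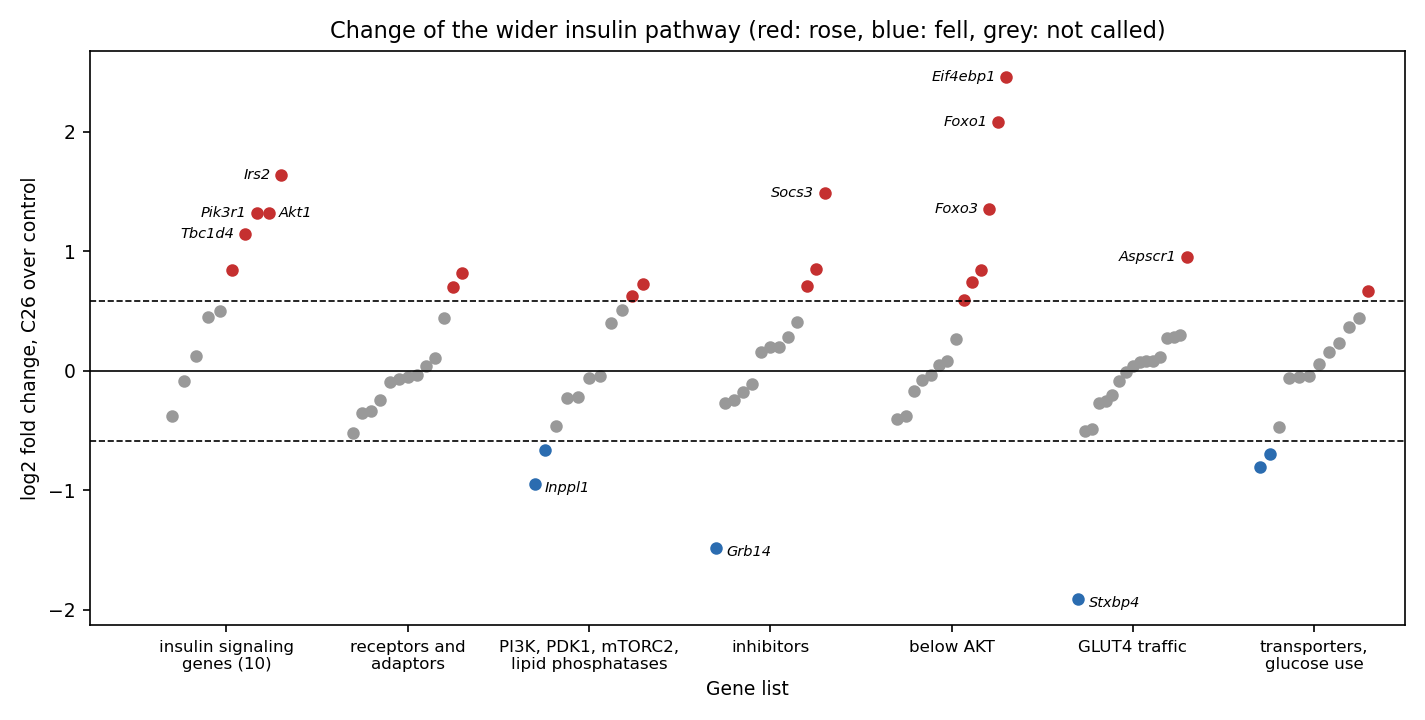
log2 fold change of C26 over control (vertical axis) of the 10 insulin signaling genes and of 6 lists of other pathway genes, 1 point a gene ordered by size within its list, in red where it rose, in blue where it fell and in grey where it was not called. Dashed lines mark a 1.5-fold change. Red points are 5 of the 10 genes and 15 of the 80 others, among them 6 of the 14 below AKT. The lowest blue points are Stxbp4 (−1.91) and Grb14 (−1.48).

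Many genes followed Irs2 and Akt1 across the 6 pools. Of 13343 other named genes above the background, 1368 had a Pearson correlation of at least 0.95 with Irs2 and 1265 with Akt1, and most of the spread these correlations share is the difference between control and C26. The 3 genes most like Irs2 were Gpr157, an orphan receptor gene (r = 0.999), Tsc1 and Ppil4. Those most like Akt1 were Top1, the DNA topoisomerase gene, and the J-domain chaperone genes Dnaja2 and Dnajb12 (r = 0.999 for each).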

How the data were processed

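The authors hybridized RNA pools of gastrocnemius and plantaris muscle to Affymetrix Mouse Gene 1.0 ST arrays and deposited log2 values. They used RMA, run in GenePattern on version 13 of the Brainarray CDF, which gives a gene 1 probe set. RMA removes background, equalizes the arrays by quantiles and then combines the probes of a gene. For the array annotation, the sources used here name no genome build.

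Gene names came from the platform's annotation, updated through gene IDs to RefSeq symbols (18771 of 18782 found). The main test was a two-sided limma fit (version 3.58.1, R 4.3.3) of C26 against control on all 21212 probe sets. Background was the 95th percentile of 1255 olfactory and vomeronasal receptor probe sets. Differences between 4 pairs of genes were tested by exact permutation in Python 3.11.15. Promoter windows are those of RefSeq. The fits were tested on simulated data, and the motif search was checked on short test strings.

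The genes and lists were chosen with earlier results of these data known. The rule named, beside the 10, the 3 called genes of each pathway list with the largest change, each called marker, and the 3 genes most correlated with each of the 2 members of largest change. Mtor, Ptpn1, Gsk3b, Rheb, Tsc1 (as a gene below AKT), the pathway genes given as not called, and the markers given as not called were named after their values were seen. The paper's methods name a parametric test, which was run with equal variances as an alternative beside other tests, thresholds, scalings, a filter on dim probe sets, a replicate block and leaving out each array.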

Additional observations from a re-analysis of the deposited data

How the results depend on the processing

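Of the 10 genes 5 were called higher and 0 lower by the methods' t-test, with a trend and robust prior, among probe sets above background, under 3 further scalings and without any 1 pool (range 5 to 5 higher, 0 to 0 lower). By a test with unequal variances 2 were called higher (Insr and Pik3r1), and Irs2, Akt1 and Tbc1d4 were not, with adjusted p of 0.0695, 0.0707 and 0.052. Over all settings the lowest adjusted p of these 3 were 3.93e-05, 2.48e-05 and 3.2e-05, and those above were the highest. Without the fold minimum Irs1 was called lower (1 gene), and Pik3ca and Akt2 higher. By the test with unequal variances the adjusted p of these 3 was 0.0736, 0.0572 and 0.0799. With limma and the replicate block, which compares only the pools numbered 1 and 3 in both groups, it was 0.145, 0.0472 and 0.0189. At least 2-fold changes were seen in 4 of the 10, without Insr. Over all settings the log2 fold change lay between 1.49 and 1.82 for Irs2, 1.18 and 1.45 for Akt1, 1.27 and 1.39 for Pik3r1, 1.03 and 1.27 for Tbc1d4, 0.75 and 0.91 for Insr, and −0.10 and −0.02 for Slc2a4, and no gene of the 10 changed sign.

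Of the 80 other pathway genes 9 were called higher by the test with unequal variances, 25 higher and 18 lower without the fold minimum, and 4 higher and 2 lower at 2-fold. Over all probe sets the test with unequal variances called 760 higher and 621 lower, no fold minimum gave 3041 and 3344, and 2-fold gave 432 and 307. Median centring gave 1534 higher and 839 lower, so that rises made up 64.6% of the calls, against 54.6% (1261 and 1049) in the values as deposited. The numbers 1 and 3 occur in both groups. With the replicate number as a block (replicate block), 5 of the 10 genes were called higher and 0 lower, and 1235 and 1069 probe sets in all. Control pool 2 and C26 pool 4 have no partner of the same number, so the change in this fit rests on pools 1 and 3 of each group. Same-numbered pools did not deviate together (correlations −0.06 and −0.06), so the number was not taken as a pairing. Changes of the differences between paired genes kept their sign under 3 scalings and without each pool. With 3 pools a group, the exact permutation test cannot pass 0.05, and fold changes near 1.5 (Akt2, Tsc1) lie within their error of the threshold.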
